A study of Homo sapiens with 42 samples.

Results

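A set of 6 rows of a small RNA count table that are named as long non-coding RNAs (lncRNAs) but lie over the protein-coding genes AXL, CKAP4, VIM, HMGCS1, MS4A6A and DHX57 were examined. They are lnc-TGFB1-6, lnc-NUAK1-5, lnc-TRDMT1-5, lnc-CCL28-2, lnc-MS4A6A-1 and lnc-GEMIN6-1, 6 of 175946 rows in the table and 6 of the 155223 rows that carry only a lncRNA annotation. The members were picked by name because their counts with end repair differed between groups, so those counts are given here as a description and carry no test. In all, 18 rows carry these 6 names, and for each name the row with the highest total count with end repair was taken. For lnc-GEMIN6-1 a tie of equal counts was settled by taking the longer row.

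The libraries hold small RNA from THP-1, a human monocytic leukaemia line, in groups labelled A4, A7, E4 and G8, and libraries labelled mock, which the labels place in HEK293T cells (a human embryonic kidney line) given 200 nM of a control antisense oligonucleotide. The series studies knockout in THP-1 of POLR3G and POLR3GL, alternative subunits of RNA polymerase III; the labels do not state the genotype behind the names A4, A7, E4 and G8, or whether each is a single clone. Each group has 3 libraries treated with Antarctic phosphatase and polynucleotide kinase (with PNK) and 3 without, 30 libraries in all, and 12 further samples of the series were not analysed here. Nothing in the labels says that the 3 libraries of a group came from separate cultures, so a p-value speaks only of the spread among the libraries at hand.

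Libraries of this kind ligate adapters to a 5′ phosphate and a 3′ hydroxyl, which mature microRNAs carry. The kinase step repairs other ends, so that broken pieces of longer RNAs, messenger RNAs among them, can also be ligated. Names of the form lnc-X-n are given after a neighbouring gene and say nothing of X itself. A read that falls in an exon of a coding gene is therefore also counted under any lncRNA name annotated over that exon. In these bulk libraries fewer cells with an RNA and less of it per cell cannot be told apart.

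Counts ignored strand. A plus-strand row inside lnc-TRDMT1-5, which is annotated on the minus strand, held 766 of its 817 counts with PNK. A row can thus not separate a coding transcript from a transcript of the opposite strand.

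Coordinates are of GRCh38, with exons of GENCODE v29. The label under which the rows were picked, coding exons, held for 4 of the 6. lnc-NUAK1-5 (chr12:106238036-106238871, minus strand) lies wholly in the 3′ untranslated region of CKAP4, in exon 2 of 2 and on its strand. lnc-TGFB1-6 (chr19:41260055-41262385, minus strand) has 1712 of its 2331 bases in the 3′ untranslated region of AXL, exon 20 of 20, on the opposite strand, and 619 bases beyond the end of the gene. Neither holds a coding base.

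The other 4 rows cover coding bases. lnc-TRDMT1-5 (chr10:17233583-17237311, minus strand) covers 774 coding bases in 7 coding exons of VIM, exons 3 to 9 of 9, on the opposite strand. lnc-CCL28-2 (chr5:43294413-43295857, minus strand) covers 277 coding bases of HMGCS1, exons 6 and 7 of 11, on the gene's strand. lnc-MS4A6A-1 (chr11:60178171-60183083, minus strand) covers 494 coding bases of MS4A6A on the gene's strand. lnc-GEMIN6-1 (chr2:38810757-38820770, plus strand) covers 399 coding bases of DHX57, exons 18 to 21 of 24, on the opposite strand, and 9309 of its 10014 bases are intronic. Of the 6 rows, 3 are on the strand of the gene beneath and 3 on the other.

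Exons of protein-coding transcripts made up all of lnc-NUAK1-5, 73.4% of lnc-TGFB1-6, 21.9% of lnc-TRDMT1-5, 19.2% of lnc-CCL28-2, 16.3% of lnc-MS4A6A-1 and 7.0% of lnc-GEMIN6-1. Of 7669 rows with only a lncRNA annotation that were abundant enough to test with PNK, 5757 (75.1%) had at least 1 base in such an exon, and the median share of a row was 9.87%. These exons include untranslated parts, so the share is not one of coding bases.

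**Figure D1:**
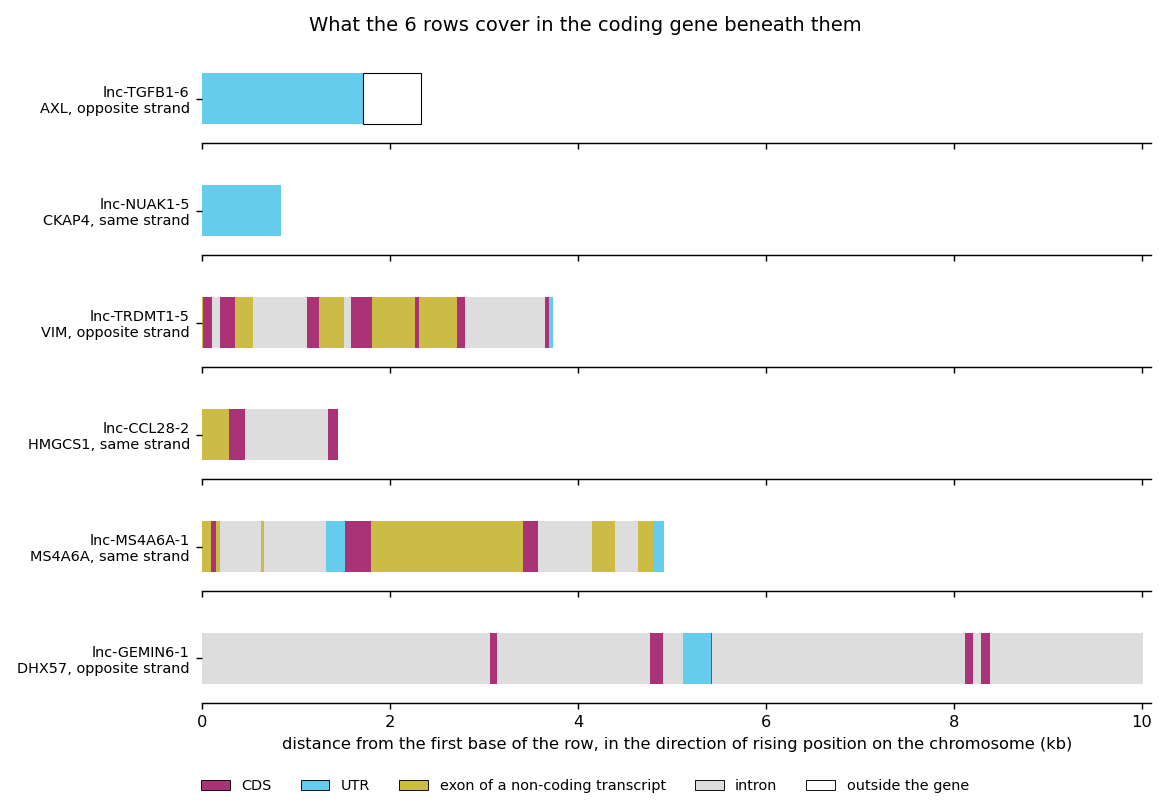
The 6 rows drawn to scale by distance from their first base in kb, coloured by what GENCODE v29 places there. lnc-TGFB1-6 and lnc-NUAK1-5 hold untranslated sequence and no coding bases, and lnc-GEMIN6-1, the longest, is mostly intron.

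For the 4 rows with coding bases, the coding sequence at the 5′ end of the covered part shows where the coding part of each row begins on the messenger RNA. Only the first 150 coding bases in the row are printed, and counts can come from any other base of the row, introns included. Capitals mark bases inside the row and lower case the 30 coding bases before it in the spliced transcript; MS4A6A starts at its start codon, which lies in the row. The stretches span exons 2 to 4 of VIM (GRCh38 chr10:17230681-17233823, plus strand), exons 6 and 7 of HMGCS1 (chr5:43294818-43295887, minus strand), exons 3 and 4 of MS4A6A (chr11:60179963-60181727, minus strand) and exons 17 to 19 of DHX57 (chr2:38818907-38823022, minus strand), introns removed, from GENCODE v29 transcripts.
VIM: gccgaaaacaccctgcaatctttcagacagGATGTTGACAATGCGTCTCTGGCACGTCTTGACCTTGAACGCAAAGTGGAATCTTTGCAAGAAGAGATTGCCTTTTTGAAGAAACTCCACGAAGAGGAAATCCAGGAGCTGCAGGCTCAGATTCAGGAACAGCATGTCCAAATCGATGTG
HMGCS1: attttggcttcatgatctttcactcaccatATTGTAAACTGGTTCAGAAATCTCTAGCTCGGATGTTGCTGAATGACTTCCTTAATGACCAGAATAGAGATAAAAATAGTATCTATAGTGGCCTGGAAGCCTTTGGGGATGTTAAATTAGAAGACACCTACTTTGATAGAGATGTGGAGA
MS4A6A: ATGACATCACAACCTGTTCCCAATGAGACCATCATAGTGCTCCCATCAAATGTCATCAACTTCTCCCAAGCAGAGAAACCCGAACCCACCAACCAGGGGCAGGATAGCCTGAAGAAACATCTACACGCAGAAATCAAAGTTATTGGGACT
DHX57: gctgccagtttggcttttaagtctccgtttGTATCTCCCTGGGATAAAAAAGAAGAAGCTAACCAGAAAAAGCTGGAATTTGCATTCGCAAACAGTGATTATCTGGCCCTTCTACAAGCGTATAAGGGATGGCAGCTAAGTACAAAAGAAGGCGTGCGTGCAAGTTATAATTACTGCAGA

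Before the results, the libraries labelled mock need a remark. The 7 microRNAs of blood cells (MIR142, MIR223, MIR155, MIR150, MIR146A, MIR342 and MIR181A1) summed to 1031 to 9984 CPM without PNK in the THP-1 groups (CPM is the count per 1000000 counts of the library, scaled by TMM factors) and to 5448 to 7647 CPM in the mock libraries. MIR142, which is made in blood cells, averaged 1977 ± 473 CPM in A4 and 2668 ± 804 CPM in the mock libraries (SD, n = 3 each). Epithelial microRNAs (7) summed to 5.22 to 65.0 CPM over the THP-1 groups and 28.8 to 41.3 CPM in mock, and microRNAs of kidney and HEK293 cells (5) to 12.1 to 77.2 CPM and 40.1 to 61.1 CPM. MIR150 was at or near 0 in all 15 libraries without PNK (at most 0.0870 CPM), and MIR141, MIR200A, MIR203A, MIR205 and MIR429 were at 0 in at least 1 of them. They are called the libraries labelled mock throughout, and differences from them are not read as differences from an untreated THP-1 culture. Libraries 1 and 2 of G8 without PNK also stood apart: microRNAs took 2.26% and 2.12% of their counts, against 13.2% to 25.9% in the other 13 libraries without PNK. Libraries 1 and 2 of G8 with PNK were low as well, at 0.215% and 0.179%, against 0.443% to 1.10% in the other 13. Their part in the values of G8 was not tested, and values without them are given beside the results.

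With PNK the libraries held 5525546 to 7847727 counts over rows that do not overlap, and without PNK 9656742 to 13272675. All 6 rows passed the filter on low counts with PNK, among 9185 features, and 2 of 6 passed without PNK, among 1785 (THP-1 libraries alone) and 1830 (with mock). In mean CPM with PNK the rows stood at the 69.5th (lnc-TGFB1-6) to 90.5th percentile (lnc-MS4A6A-1) of features. Per kb of row, the mean level over the 15 libraries with PNK was highest for lnc-NUAK1-5 at 24.9 CPM per kb, followed by lnc-CCL28-2 (8.09), lnc-MS4A6A-1 (6.25), lnc-TGFB1-6 (2.92), lnc-TRDMT1-5 (2.27) and lnc-GEMIN6-1 (1.56 CPM per kb).

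The rows over AXL and CKAP4 were high in A7 and E4 libraries with PNK and low in the other 3 groups. AXL is a receptor tyrosine kinase that binds GAS6 and acts in the uptake of dying cells by macrophages. lnc-TGFB1-6, at the 3′ end of AXL, had 0.542, 0.211 and 1.06 CPM in A4 libraries, 19.0, 21.6 and 20.7 CPM in A7, 9.32, 9.60 and 11.9 CPM in E4, 1.28, 1.89 and 1.80 CPM in G8, and 2.24, 0.233 and 0.833 CPM in mock. Every A7 library lay above every E4 library, and every E4 library above all libraries of A4, G8 and mock, while G8 and A4 each overlapped mock. The log2 difference from mock was 4.29 ± 0.38 in A7, 3.31 ± 0.39 in E4, 0.70 ± 0.50 in G8 and -0.76 ± 0.62 in A4 (± SE of the edgeR fit over all 15 libraries with PNK). This SE, here and below, was derived as the size of the log2 difference divided by the square root of its quasi-likelihood F statistic. The values of A4 and mock rest on 10 and 22 counts.

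CKAP4, also known as CLIMP-63, is a membrane protein of the endoplasmic reticulum that helps keep its sheets apart. lnc-NUAK1-5, in its 3′ untranslated region, had 2.17, 1.48 and 4.45 CPM in A4 libraries, 52.4, 54.5 and 46.9 CPM in A7, 32.5, 46.3 and 37.6 CPM in E4, 4.91, 7.96 and 9.24 CPM in G8, and 3.36, 4.65 and 4.17 CPM in mock. The order of the groups was that of lnc-TGFB1-6 at the top, with A7 above E4 and both far above the rest, and here all 3 G8 libraries also lay above all of mock and A4. Against mock the log2 difference was 3.64 ± 0.29 in A7, 3.24 ± 0.28 in E4, 0.87 ± 0.29 in G8 (1.18 without G8 libraries 1 and 2) and -0.62 ± 0.33 in A4.

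The row over VIM ran the other way. VIM encodes vimentin, an intermediate filament protein of mesenchymal cells and of monocytes and macrophages. lnc-TRDMT1-5 had 12.5, 11.2 and 14.2 CPM in A4 libraries, 1.12, 0.772 and 2.53 CPM in A7, 1.47, 1.37 and 1.25 CPM in E4, 12.8, 10.3 and 13.6 CPM in G8, and 9.29, 18.1 and 16.7 CPM in mock. No A7 or E4 library reached the lowest library of A4, G8 or mock, and A4, G8 and mock overlapped each other. The log2 difference from mock was -3.28 ± 0.33 in A7, -3.42 ± 0.34 in E4, -0.27 ± 0.26 in G8 and -0.23 ± 0.26 in A4. The levels of A7 and E4 rest on 30 and 26 counts, and E4 and A7 overlapped.

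The rows over HMGCS1 and DHX57 were lowest in G8. HMGCS1 is the cytosolic enzyme that makes HMG-CoA early in the mevalonate pathway to cholesterol. lnc-CCL28-2 had 18.6, 12.7 and 20.8 CPM in A4 libraries, 9.08, 8.65 and 13.1 CPM in A7, 8.66, 10.2 and 11.9 CPM in E4, 2.78, 3.35 and 4.23 CPM in G8, and 21.0, 16.6 and 13.7 CPM in mock. All G8 libraries lay under all others, the A7 and E4 libraries lay under all mock libraries, and A4 overlapped mock. Its log2 difference from mock was -2.27 ± 0.26 in G8 (-2.00 without G8 libraries 1 and 2) and -0.73 ± 0.23 in both A7 and E4; that of A4 was 0.02 ± 0.22, a sign that turned under 8 of the 22 other settings tried.

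DHX57 is a DEAH-box protein, a family of putative RNA helicases. lnc-GEMIN6-1 had 13.1, 13.9 and 10.6 CPM in A4 libraries, 27.7, 27.0 and 13.1 CPM in A7, 15.2, 18.3 and 16.4 CPM in E4, 1.92, 2.10 and 0.513 CPM in G8, and 26.6, 23.4 and 25.1 CPM in mock. G8 was again below every other library; A4 and E4 lay between G8 and mock with no overlap with either, and A7 library 3 fell at the level of A4 while A7 libraries 1 and 2 were above all of mock. Against mock the log2 difference was -4.16 ± 0.37 in G8 (-5.55 without G8 libraries 1 and 2), -0.99 ± 0.28 in A4, -0.59 ± 0.27 in E4 and -0.15 ± 0.27 in A7. Without A7 library 3 the value of A7 turned to 0.13. The level of G8 rests on 23 counts, and without G8 libraries 1 and 2 on 4 counts in 1 library.

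MS4A6A encodes a membrane protein with several transmembrane segments found in monocytes and macrophages. lnc-MS4A6A-1 had 22.8, 26.4 and 17.4 CPM in A4 libraries, 24.7, 23.8 and 26.9 CPM in A7, 39.7, 41.3 and 33.8 CPM in E4, 49.1, 46.3 and 36.6 CPM in G8, and 21.1, 23.4 and 27.5 CPM in mock. E4 and G8 lay above the other 3 groups in every library, and A4, A7 and mock overlapped. G8 libraries 1 and 2 were the highest of all, and G8 library 3 lay within E4. The log2 difference from mock was 0.87 ± 0.19 in G8 (0.61 without G8 libraries 1 and 2), 0.67 ± 0.19 in E4, 0.07 ± 0.19 in A7 and -0.11 ± 0.19 in A4. The libraries labelled mock, HEK293T by their labels, thus held this row at the level of A4 and A7.

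**Figure D2:**
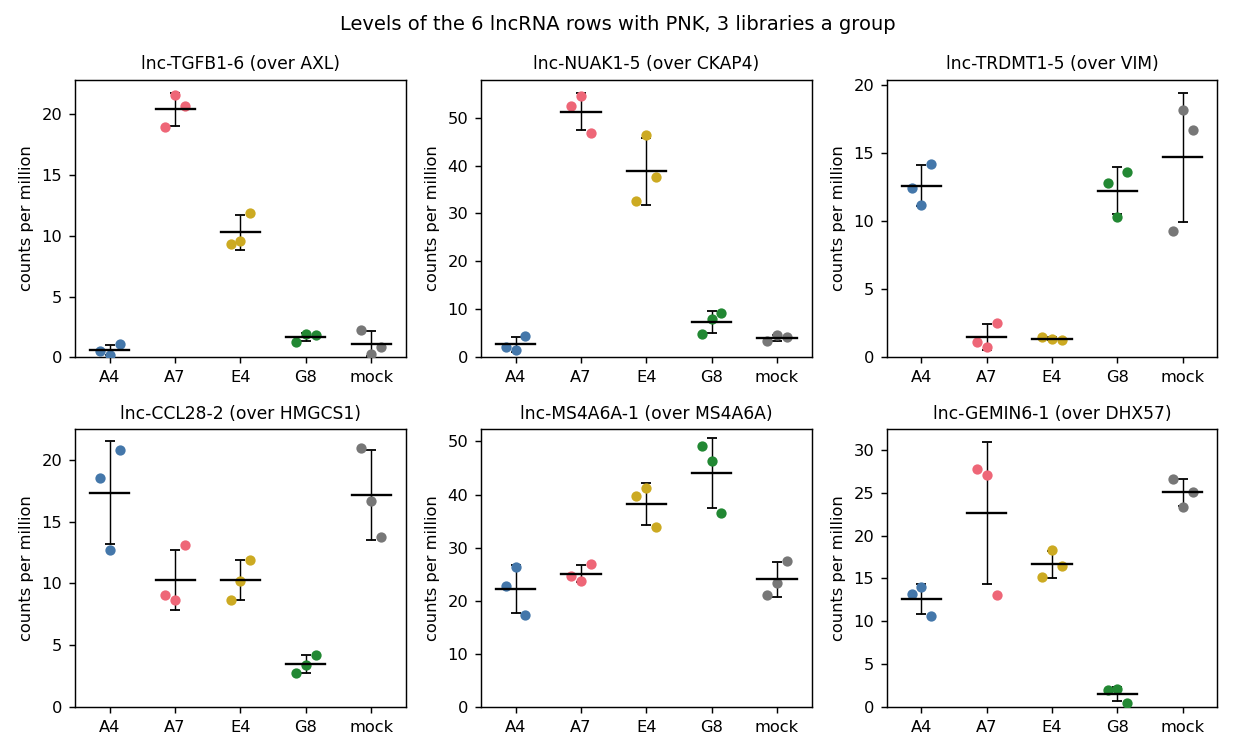
CPM of each row in each of the 15 libraries with PNK (points), with the mean (bar) and SD of the 3 libraries of a group. The rows over AXL and CKAP4 are high in A7 and E4, the row over VIM is low there, and the rows over HMGCS1 and DHX57 are lowest in G8.

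Against mock, groups of 3 libraries did not overlap for 1 of 6 rows in A4 (lnc-GEMIN6-1, lower), 4 in A7, 6 in E4 and 4 in G8. Over all 9185 features the shares without overlap were 27.8% for A4, 24.6% for A7, 29.2% for E4 and 23.3% for G8. At least 1 log2 unit from mock, in either direction, lay 0 of 6 rows in A4 (all features 13.9%), 3 in A7 (9.62%), 3 in E4 (13.1%) and 2 in G8 (10.3%). Since these values chose the rows, nothing is read from the counts. Between THP-1 groups, rows did not overlap for 3 of 6 in A7 against A4 (all features 32.0%), 6 in E4 against A4 (30.2%), 5 in G8 against A4 (28.8%), 3 in E4 against A7 (18.7%), 6 in G8 against A7 (27.0%) and 5 in G8 against E4 (29.5%). The comparisons share libraries and are not independent of each other.

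The differences between THP-1 groups were as wide as those from mock. lnc-TGFB1-6 differed most, by 5.06 ± 0.44 log2 units for A7 minus A4 and 4.07 ± 0.46 for E4 minus A4. lnc-GEMIN6-1 differed by -4.01 ± 0.37 for G8 minus A7 and -3.57 ± 0.37 for G8 minus E4. lnc-TRDMT1-5 differed by -3.06 ± 0.33 for A7 minus A4 and by 3.15 ± 0.34 for G8 minus E4. E4 and A7 were closest, with differences of -0.99 ± 0.29 for lnc-TGFB1-6, 0.61 ± 0.19 for lnc-MS4A6A-1, -0.44 ± 0.27 for lnc-GEMIN6-1, -0.40 ± 0.24 for lnc-NUAK1-5 and -0.14 ± 0.43 for lnc-TRDMT1-5.

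**Figure D3:**
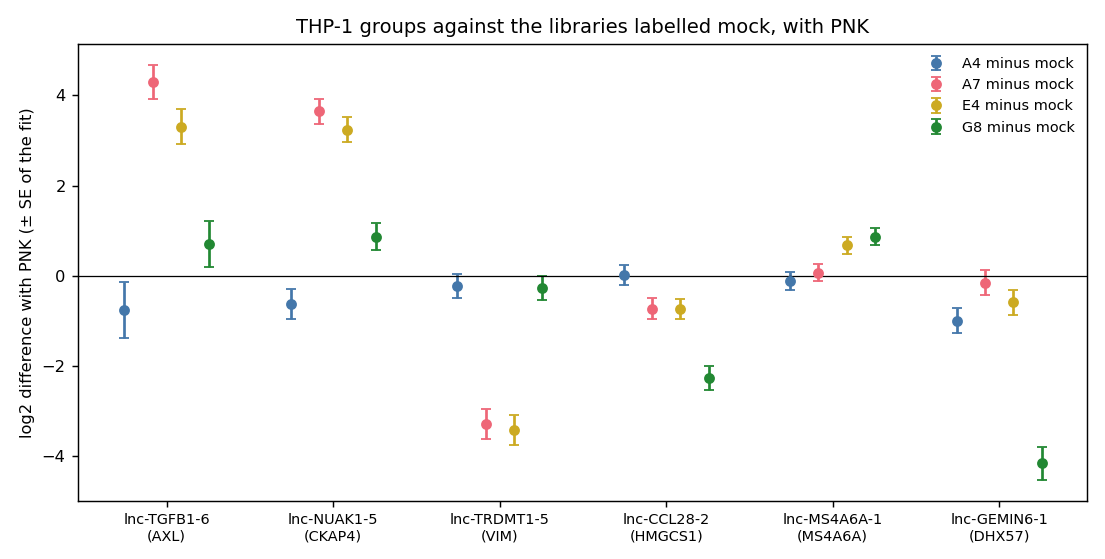
Log2 difference of each THP-1 group from the libraries labelled mock with PNK, one point a group with the SE of the edgeR fit, for each row. A7 and E4 lie at 3.24 to 4.29 for the rows over AXL and CKAP4 and at -3.28 and -3.42 for the row over VIM, and G8 lies at -4.16 for the row over DHX57.

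With library totals in place of TMM factors the median of all features against mock moved to -0.53 for A4, -0.23 for A7, -0.33 for E4 and -0.34 for G8. With factors from microRNAs alone it moved to -0.89 for A4, -1.02 for A7, -1.01 for E4 and 0.18 for G8. Under microRNA factors lnc-MS4A6A-1 in E4 turned to -0.35, which is 0.66 above that median, and in A7 it was -0.17 under library totals and -0.96 under microRNA factors. The directions of lnc-TGFB1-6, lnc-NUAK1-5 and lnc-TRDMT1-5 in A7 and E4, and of lnc-CCL28-2 and lnc-GEMIN6-1 in G8, were the same under both.

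Log2 CPM of the rows over AXL and CKAP4 moved together across the 15 libraries with PNK (Pearson r = 0.96, a description over libraries that share groups). The row over VIM ran against them, with r = -0.93 and -0.91. lnc-CCL28-2 and lnc-GEMIN6-1, the rows lowest in G8, had r = 0.76, and lnc-CCL28-2 and lnc-MS4A6A-1 had r = -0.83. Each row was also set against the 4593 features at or above the median level of those tested that lie over 100 kb away. Highest for lnc-TGFB1-6 were lnc-NUAK1-5 itself, lnc-EIF2B1-6 (r = 0.94) and lnc-COL4A1-6 (0.90), and for lnc-NUAK1-5 they were lnc-TGFB1-6, NONHSAG008050.2 (0.94) and lnc-EIF2B1-6 (0.93). lnc-EIF2B1-6 averaged 59.0 CPM in A7 and 63.5 CPM in E4, against 27.2 CPM in A4, 38.3 CPM in G8 and 31.4 CPM in mock, a narrower spread than either row.

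The feature nearest to lnc-TRDMT1-5 was a row named NEAT1 (chr11:65426055-65426531, r = 0.93), after the lncRNA that paraspeckles are built on. This row, which is a part of the gene, averaged 5.82 CPM in A7 and 5.76 CPM in E4, against 21.0 CPM in A4, 18.3 CPM in G8 and 15.3 CPM in mock. NONHSAG008515.2 (r = 0.91) and a row of a small nuclear RNA, ENSVURG00010009215.1 (0.90), came next. Nearest to lnc-CCL28-2 were AC092069.1 (r = 0.93), lnc-SLC38A2-5 (0.91) and lnc-FAM177B-1 (0.91), each of which lies wholly in exons of protein-coding transcripts. lnc-NVL-6 (r = 0.89), AL606760.2 (0.88) and lnc-IQGAP3-2 (0.88) came nearest to lnc-MS4A6A-1, and HSALNG0008270 (0.94), HSALNG0007948 (0.93) and HSALNG0116598 (0.92) to lnc-GEMIN6-1. These features were picked for their likeness out of all those features, so the size of r is no finding.

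Other rows lie over the same 6 coding genes, 49 in all. Those given below that share no base with the member, called second rows, were picked after their values were seen. They come from the same libraries with PNK that chose the members. Their values are therefore a description and no independent support. Over AXL, AC011510.1 (chr19:41221426-41222051, 172 coding bases) had 0 counts in the 3 A4 libraries, 7, 7 and 4 in A7, 5, 5 and 4 in E4, 1, 2 and 1 in G8, and 1, 0 and 0 in mock. Its 37 counts in all were again highest in A7 and E4, though few. Over CKAP4, lnc-NUAK1-7 (chr12:106239894-106304251, 990 coding bases) averaged 0.584 ± 0.291 CPM in A4, 15.1 ± 3.63 CPM in A7, 13.5 ± 2.83 CPM in E4, 2.33 ± 0.932 CPM in G8 and 2.40 ± 0.443 CPM in mock (SD, n = 3 each). Like lnc-NUAK1-5 it was highest in A7 and E4, and G8 did not exceed mock here. A shorter row, lnc-NUAK1-6 (chr12:106247500-106247981, 352 coding bases), lies wholly inside lnc-NUAK1-7 and is no separate reading. It had 0 counts in A4, 28 in A7, 18 in E4, 6 in G8 and 1 in mock. All 3 G8 libraries lay above all of mock on these few counts.

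Over VIM, the VIM-AS1 row at chr10:17229345-17229948, which covers 526 coding bases before the member, averaged 2.57 ± 0.400 CPM in A4, 0.150 ± 0.155 CPM in A7, 0.259 ± 0.172 CPM in E4, 1.92 ± 0.758 CPM in G8 and 2.02 ± 0.560 CPM in mock. This row, nearer the 5′ end of the gene, was also low in A7 and E4. Over HMGCS1, AC114947.2 (chr5:43289395-43290839, wholly in the 3′ untranslated region) averaged 48.3 ± 3.66 CPM in A4, 29.8 ± 1.51 CPM in A7, 28.0 ± 4.67 CPM in E4, 10.9 ± 1.9 CPM in G8 and 54.3 ± 3.66 CPM in mock. The order G8, then E4 and A7, then A4 and mock was that of lnc-CCL28-2.

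Over MS4A6A the row of highest count with PNK, NONHSAG008426.2 (chr11:60172030-60183061), overlaps the member. It averaged 62.8 ± 2.15 CPM in A4, 101 ± 4.52 CPM in A7 and 111 ± 2.11 CPM in E4. In G8 it averaged 124 ± 16.2 CPM and in mock 90.5 ± 5.15 CPM. The second rows over MS4A6A and DHX57 differed from their members. The lnc-MS4A6A-1 row at chr11:60183170-60184666, mostly untranslated, averaged 1.55 ± 0.529 CPM in A4, 3.39 ± 0.803 CPM in A7, 3.35 ± 0.423 CPM in E4, 2.32 ± 0.401 CPM in G8 and 1.55 ± 0.520 CPM in mock, so that A7 stood with E4 and G8 stood below both. NONHSAG027529.2 (chr2:38861232-38863134, 795 coding bases of DHX57) averaged 1.04 ± 0.188 CPM in A4, 1.56 ± 0.583 CPM in A7, 1.96 ± 1.16 CPM in E4, 1.9 ± 0.786 CPM in G8 and 1.70 ± 0.228 CPM in mock. This row, over more coding bases of DHX57 than lnc-GEMIN6-1 covers, was not low in G8. Within lnc-GEMIN6-1, a shorter row of the same name (chr2:38817890-38820770) held 1508 of the 1544 counts with PNK and 583 of the 586 without. Coding bases make up 180 of its 2881 bases.

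**Figure D4:**
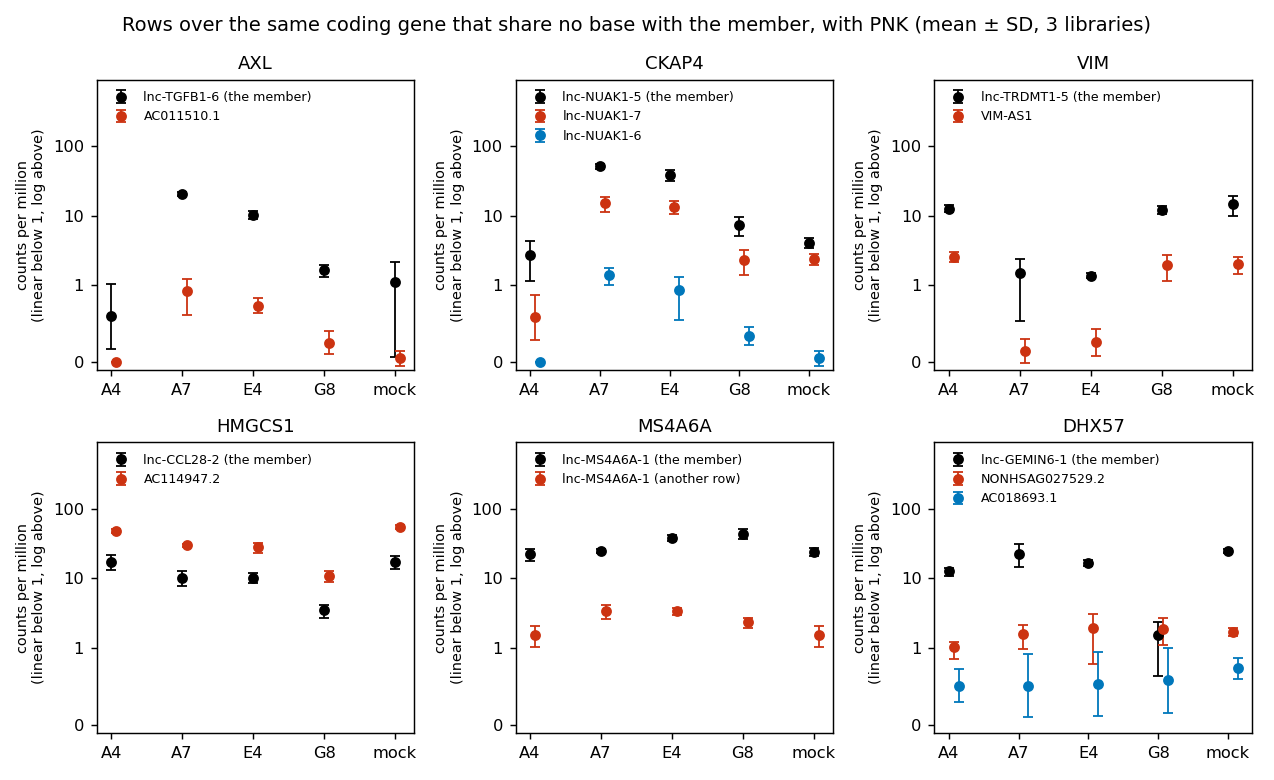
Mean CPM with PNK (points, with SD of 3 libraries, axis linear below 1 and logarithmic above) of each member and of rows over the same gene that share no base with it. Those rows were picked after their values were seen. The second rows, like the members, are highest in A7 and E4 over AXL and CKAP4, lowest there over VIM and lowest in G8 over HMGCS1, and those over DHX57 stay near 1.04 to 1.96 CPM or lower in every group, G8 included.

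Rows named after the coding genes themselves mostly lie elsewhere. No row is named lnc-AXL-n, and the 3 rows named lnc-CKAP4-n, 2 named lnc-VIM-n, 3 named lnc-HMGCS1-n and 7 named lnc-DHX57-n share 0 bases with their namesake gene. Their highest counts with PNK over 15 libraries were 5 for lnc-CKAP4-n, 17 for lnc-VIM-n, 1933 for lnc-HMGCS1-n (lnc-HMGCS1-3) and 1799 for lnc-DHX57-n (lnc-DHX57-3), and 3 of the lnc-DHX57-n rows reached 100. The last 2 of these exceed the counts of the rows over HMGCS1 and DHX57, and come from outside both genes. All 5 rows named lnc-MS4A6A-1 lie within MS4A6A.

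Nearly all counts of 4 rows came with PNK. Over the 30 libraries, 663 counts of lnc-TGFB1-6 came with PNK and 3 without, 2026 and 11 of lnc-NUAK1-5, 817 and 19 of lnc-TRDMT1-5, and 1132 and 16 of lnc-CCL28-2. lnc-MS4A6A-1 had 2872 with PNK and 103 without, which is 96.5% with PNK. This row was picked among 5 of its name by its count with PNK, a choice that shapes the share. An overlapping row of the name (chr11:60177019-60179965) had 1636 with PNK and 2386 without. For lnc-GEMIN6-1 the counts were 1544 and 586, or 72.5% with PNK, and in G8 alone 23 and 31.

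On the CPM scale the log2 difference between arms, with PNK minus without, was positive in all 5 groups for 5 of the rows and lay between -2.70 (G8) and 0.25 (E4) for lnc-GEMIN6-1. With rows chosen by the total over both arms, 5 of the 30 values changed sign. Positive values are what most features had: the median of all features lay between 2.77 (A7) and 3.86 (G8). lnc-TGFB1-6 was above that median in 4 of 5 groups, lnc-NUAK1-5 and lnc-CCL28-2 in 3, lnc-MS4A6A-1 in 2, lnc-TRDMT1-5 in 1 and lnc-GEMIN6-1 in 0. At least 1 log2 unit higher with PNK were 5 of 6 rows in A4 (all features 76.4%), 3 in A7 (71.9%), 5 in E4 (75.4%), 5 in G8 (80.1%) and 5 in mock (73.6%). Without G8 libraries 1 and 2 in either arm lnc-GEMIN6-1 had -5.45 in G8, against a median of 4.54. That value sets 4 counts in 1 library with PNK against 25 in 1 library without. With library totals that median rose to 5.59 to 6.08 and lnc-GEMIN6-1 to 0.36 to 3.50, still below it. The scaling between arms is open, since the arms hold different RNA populations, and no test was made.

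Counts without PNK were not used to choose the rows, and there the 2 rows with enough counts were tested. Both arms carry the same group names and library numbers, and the labels do not say whether they share RNA samples. If they do, these tests are not independent of the choice of rows. lnc-GEMIN6-1 had 14, 10 and 19 counts in A4 libraries without PNK, 160, 95 and 22 in A7, 20, 9 and 17 in E4, 5, 1 and 25 in G8, and 136, 41 and 12 in mock. In CPM these were 1.26 ± 0.451 in A4, 6.78 ± 5.07 in A7, 1.34 ± 0.482 in E4, 1.12 ± 1.19 in G8 and 5.83 ± 6.25 in mock (SD, n = 3 each). A7 libraries 1 and 2 were above all libraries of A4, E4 and G8, and A7 library 3 lay among them. Across A4, A7, E4 and G8 the edgeR quasi-likelihood test gave an adjusted p of 0.0306, and 1 of the 2 rows tested was called, where 32.3% of 1785 features were. DESeq2 also called lnc-GEMIN6-1 (adjusted p = 0.00369), where it called 54.1% of 1691 features. A replicate term ended the call (adjusted p = 0.0551); same-numbered libraries without PNK deviated together for E4 with A4 and for G8 with A4, though not for the other pairs of THP-1 groups. Of 12 fits that left out 1 library, 6 kept the call, with an adjusted p of 0.00325 to 0.0498, and 6 lost it: the adjusted p was 0.0606 without A4 library 1, 0.0617 without A4 library 2, 0.170 without A7 library 1, 0.0758 without A7 library 2, 0.0519 without E4 library 1 and 0.0540 without E4 library 2. Over all settings it ranged from 2.19e-08 with no filter on low counts to 0.170. Without G8 libraries 1 and 2, the ones low in microRNAs, it was 0.0344.

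Against mock, none of the 2 rows was called in any of 4 groups (0 of 8 tests, edgeR), where 1.42% of 1830 features were called for A4, 0.383% for A7, 4.04% for E4 and 26.9% for G8. Nothing is read from the tests of lnc-MS4A6A-1 among these 8, since that row passed the filter through A7, where it is highest. Without PNK lnc-GEMIN6-1 differed from mock by -2.20 ± 0.87 log2 units in A4 (edgeR adjusted p = 0.255), by 0.22 ± 0.77 in A7 (0.937), by -2.11 ± 0.86 in E4 (0.192) and by -2.22 ± 0.90 in G8 (0.0820). Unadjusted p-values were under 0.05 in 3 of the 8 tests, where of all 1830 features 305 were under it for A4, 202 for A7, 320 for E4 and 733 for G8. With DESeq2 1 of 8 was called, lnc-GEMIN6-1 in G8 (adjusted p = 0.0445), where DESeq2 called 4.86% of 1749 features for A4, 2.23% for A7, 9.55% for E4 and 35.6% for G8. By edgeR that value in G8 was called without G8 library 3 (log2 -3.74, adjusted p = 0.0240) and without mock library 3 (-2.80, 0.0349). With all libraries and no filter on low counts edgeR called it too (-2.36, adjusted p = 0.000377). It was -0.93 with an adjusted p of 0.494 without mock library 1, and -1.25 without G8 libraries 1 and 2. With all libraries and the filter on low counts, the edgeR fit gave no call for a lower level in G8 than in mock.

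lnc-MS4A6A-1 had 4, 3 and 8 counts in A4 libraries without PNK, 17, 13 and 14 in A7, 3, 8 and 2 in E4, 1, 1 and 7 in G8, and 2, 11 and 9 in mock. The 3 A7 libraries were the only ones of THP-1 to reach the minimum of the filter on low counts, 0.935 CPM, so the row entered the test across THP-1 groups through A7 alone, and that A7 is highest there was fixed by the filter. Its edgeR adjusted p, 0.107 across the THP-1 groups and 0.0163 without G8 library 3, is given for completeness and nothing is read from it. Against mock the log2 difference was -0.59 ± 0.65 for A4 (edgeR adjusted p = 0.656), 0.67 ± 0.57 for A7 (0.743), -0.80 ± 0.66 for E4 (0.638) and -0.78 ± 0.72 for G8 (0.427). The row entered these tests through A7 as well: 3 A7 libraries and 1 mock library reached the minimum, and 0 of A4, E4 and G8. Nothing is read from these values either.

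Without PNK the member had 103 counts, and another row of the name lnc-MS4A6A-1 (chr11:60177019-60179965) had 2386. That row had 108, 57 and 57 counts in A4 libraries without PNK, 169, 119 and 192 in A7, 172, 172 and 187 in E4, 362, 358 and 145 in G8, and 92, 106 and 90 in mock. G8 libraries 1 and 2, the pair low in microRNAs, were the highest of all 15, and G8 library 3 was not above E4; the part of their makeup in this was not tested.

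The 4 rows over AXL, CKAP4, VIM and HMGCS1 could not be compared without PNK. Their highest level in any library there was 0.410 CPM, for lnc-TRDMT1-5 and lnc-CCL28-2 in mock library 2, while 3 counts in a library correspond to 0.209 to 0.558 CPM. The libraries without PNK were the deeper ones, so the limit is the number of counts in these rows, 3 to 19 over 15 libraries, on which differences of the kind seen with PNK were not detectable. These floors cover counting error only.

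**Figure D5:**
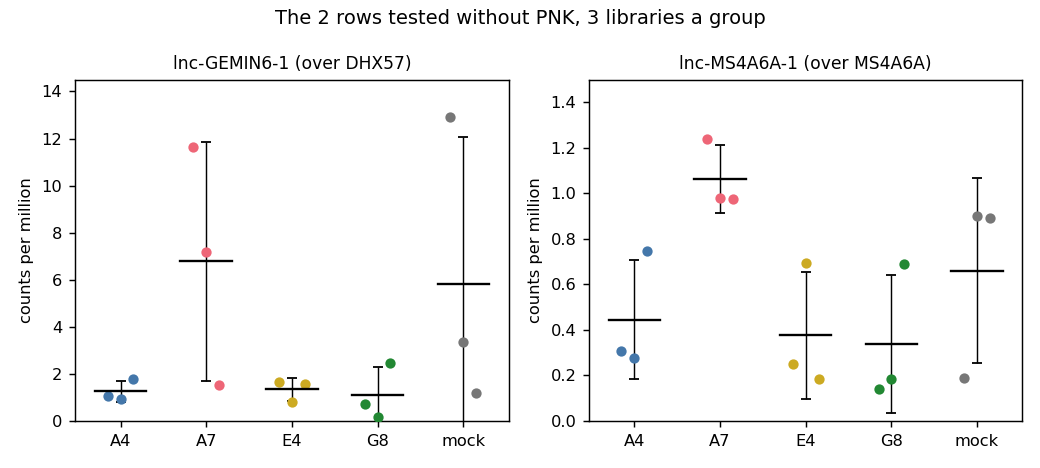
CPM without PNK of lnc-GEMIN6-1 and lnc-MS4A6A-1 in each of 15 libraries (points), with mean and SD of the 3 libraries of a group (bars that would pass 0 end there). lnc-GEMIN6-1 is spread widely within A7 and mock, and lnc-MS4A6A-1 stays at or below 1.24 CPM.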

How the data were processed

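The deposited values are raw counts per annotated row, per the file headers and the values (whole numbers, unequal column sums). The authors' rules for strand, overlap and multiple alignments are not given in the sources used here. Per the submitters' processing notes, the build is GRCh38 and the tools include Trim Galore for trimming, the aligner Bowtie2 (version 2.3.5.1), bedtools (2.28.0), SAMtools (1.9) and deepTools (3.2.1). Of 17733 rows with a GENCODE v29 gene ID, 17235 (97.2%) lay within 1 base of that gene's span.

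Rows overlap, so 86001 rows that do not overlap were kept, the members among them. Counts summed over all rows were 6.46 to 9.69 times those over the kept rows with PNK, and 17.7 to 21.2 times without. A prior count of 2 enters log2 CPM. Tests used the quasi-likelihood pipeline of edgeR 4.0.16 under R 4.3.3 (TMM, filterByExpr, Benjamini-Hochberg threshold 0.05), over 12 libraries without PNK across THP-1 groups and over 15 against mock; nothing was tested with PNK or between arms. The biological coefficient of variation was 40.4% and 39.2% in these fits, and 24.2% with PNK. The steps were also run on simulated counts with a spread set below that of the fits without PNK. That run does not show how the tests perform on these data. Alternatives were DESeq2 1.42.0, other factors, no filter, every deposited row, a replicate term and each library left out in turn. No 2 libraries of a group agreed within sampling noise (lowest chi-square per feature 3.17).

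The members and lists were chosen with earlier results of these data known. Named rows are the members, rows over the same genes and the 3 features most like each member. Rows that share no base with a member were picked after their values were seen, since the row of highest count often contains the member. Without PNK the same-numbered libraries deviated together, with all 3 correlations over 0.1, for mock with A7 (0.28 to 0.67), E4 with A4 (0.77 to 0.93) and G8 with A4 (0.14 to 0.65), and not for the other pairs of groups or with PNK. They deviated in opposite directions for mock with A4 (-0.91 to -0.74), with E4 (-0.86 to -0.57) and with G8 (-0.49 to -0.31). The positive values therefore do not by themselves show that the numbers are pairs.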

Additional observations from a re-analysis of the deposited data

How the results depend on the processing

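Among the THP-1 groups without PNK 1 of 2 rows was called; a replicate block left 0 (adjusted p = 0.0551 for lnc-GEMIN6-1, where the numbers do not pair all 4 groups), rows chosen by the total over both arms, an alternative added after seeing the data, gave 2, and leaving out 1 library gave 0 to 2. With that other choice of row lnc-MS4A6A-1 had an edgeR adjusted p of 0.00954 across the groups, and 0.00288 in G8 against mock (log2 2.31). That choice used the very counts without PNK that were then tested, so nothing is read from these values. The other row held 362 and 358 counts in G8 libraries 1 and 2 without PNK, the pair low in microRNAs, against 145 in G8 library 3. Against mock 0 of 8 was called; no filter on low counts gave 3 (of 24, since all 6 rows then enter), DESeq2 gave 1, rows chosen over both arms gave 1, and leaving out 1 library gave 0 to 1. The share of all features called with no filter is not given, so nothing is read from the 3 calls there. The replicate block changed no call against mock. The count of rows at least 1 log2 unit from mock with PNK was 8 of 24 under TMM factors (all features 9.62% to 13.9%), and these values chose the rows. It was 17 with microRNA factors, 12 with library totals and 10 without G8 libraries 1 and 2, the last added after seeing the data. With microRNA factors the median of all features itself lay at -0.89 for A4, -1.02 for A7, -1.01 for E4 and 0.18 for G8. With library totals it lay at -0.53 for A4, -0.23 for A7, -0.33 for E4 and -0.34 for G8. Shares of all features under these alternatives are not given, so the higher counts are not read as a result about the rows. Between arms 23 of 30 values were at least 1 log2 unit higher with PNK, where 71.9% to 80.1% of all features were, and 19 to 29 under the alternatives. Of single values under alternatives, 1654 kept their call or lack of a call or moved within their error, 132 moved further, 9 gained and 7 lost a call. The sign of a value that was not called took no part in this sorting. lnc-MS4A6A-1 in G8 against mock without PNK, counted among the 1654, went from -0.78 to 0.03 without G8 libraries 1 and 2. The causes were not tested. For 4 of the 6 rows too few counts were left without PNK for a test, in libraries deeper than those with PNK.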
